A study of Mus musculus with 62 samples.

Results

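A set of 8 genes that mark B and T lymphocytes was followed, library by library, through RNA sequencing of fat and liver from *Fam13a* knockout (KO) and wild-type (WT) mice. They are the B cell genes *Cd79a*, *Cd79b*, *Ms4a1* and *Cr2* and the T cell genes *Cd3e*, *Cd3g*, *Cd8a* and *Cd4*, which are 8 of the 48795 genes counted. The genes were listed by name and matched to Ensembl identifiers in the count table, without a threshold on any value, and the list was drawn up with earlier results of these data known. The question was where in the series lymphocyte transcripts were found, and whether they came with transcripts of lymph node vessels and stroma or without them.

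The libraries came from subcutaneous adipose tissue (SAT, the inguinal depot), visceral adipose tissue (VAT, the gonadal depot) and liver. Male WT and KO mice were sampled on chow and on a high-fat diet (HFD) for all 3 tissues, and female WT and KO mice on HFD for SAT and VAT. Each of the 16 groups held 4 libraries, except SAT and VAT of WT females, with 3 each. The KO is a whole-body deletion that removes exon 5 of *Fam13a*, on a C57BL/6 background, and WT mice carried no deletion. HFD began at 8 weeks of age and lasted 14 weeks, so those mice were 22 weeks old at death. The age of the sequenced mice on chow is not given in the sources used here. Nothing in the labels ties the tissues of 1 mouse together or states that each library is a separate animal, so p-values measure the spread between these libraries.

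CD79A and CD79B form the signalling part of the B cell receptor, CD20 (*Ms4a1*) is a membrane protein of B cells, and CR2 (CD21) is a complement receptor of mature B cells and follicular dendritic cells. CD3E and CD3G belong to the T cell receptor complex, CD8A marks cytotoxic T cells, and CD4 marks helper T cells and some mouse myeloid cells. Lymphocytes are found in fat in more than one setting. Lymph nodes lie embedded in fat, the inguinal node among them, and hold follicles of naive B cells, zones of naive T cells and high endothelial venules, vessels that take lymphocytes in from blood and make the mucin GLYCAM1. Outside nodes, single lymphocytes and plasma cells are scattered between adipocytes, and small clusters of lymphocytes can form, mostly in visceral fat. In bulk tissue, fewer cells of a type and less RNA per cell cannot be told apart.

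The members lie on 6 chromosomes of GRCm38. *Cr2* is at chr1:195136811-195176716, *Cd79a* at chr7:24897381-24902197, *Cd79b* at chr11:106311341-106314762, *Ms4a1* at chr19:11249675-11266241, *Cd8a* at chr6:71373427-71379173 and *Cd4* at chr6:124864692-124888221. *Cd3g* (chr9:44969572-44980431) and *Cd3e* (chr9:44998740-45009627) are neighbours on the minus strand. *Cd3e* shares 135 exon bases with *Gm48719* on the opposite strand, and the count column kept for strand is not stated, so its value is less certain than those of the other 7.

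RefSeq's promoter table for GRCm38.p6 held 5 of the 8 members, and *Cd79b*, *Ms4a1* and *Cd4* were absent from it. Bases before the start of the gene are shown for the 3 members that hold CAGGTG or its reverse complement CACCTG, an E-box that E-protein transcription factors of the lymphoid lineage are known to bind. The letters in capitals mark the E-box, and the motifs were chosen after values of these genes had been seen. Each sequence runs 5′ to 3′ on the strand of the gene.
Cd79a, chr7:24897247-24897380, plus strand: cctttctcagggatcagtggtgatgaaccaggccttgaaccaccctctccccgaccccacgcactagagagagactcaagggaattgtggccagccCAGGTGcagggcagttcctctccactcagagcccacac
Cr2, chr1:195176720-195176969, minus strand: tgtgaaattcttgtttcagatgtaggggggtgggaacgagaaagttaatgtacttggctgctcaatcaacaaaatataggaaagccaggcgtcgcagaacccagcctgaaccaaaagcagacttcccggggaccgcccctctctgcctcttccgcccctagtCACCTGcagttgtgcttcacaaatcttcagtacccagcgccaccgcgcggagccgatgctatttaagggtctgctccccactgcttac
Cd3g, chr9:44980432-44980681, minus strand: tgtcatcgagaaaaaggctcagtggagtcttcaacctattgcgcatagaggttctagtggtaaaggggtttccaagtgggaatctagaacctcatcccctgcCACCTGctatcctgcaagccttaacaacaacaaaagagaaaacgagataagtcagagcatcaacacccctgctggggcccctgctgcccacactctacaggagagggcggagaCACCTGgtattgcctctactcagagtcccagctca

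Counted from the base after each printed sequence, the nearest match began 38 bases before it in *Cd79a*, 88 in *Cr2* and 35 in *Cd3g*. The *Cd79a* sequence holds 134 bases, because it was cut before the gene start at chr7:24897381, which lies upstream of the RefSeq start. Of all 32851 promoters in the table, 17.2% held the motif on either strand in the 250 bases before the RefSeq start. *Cd8a* did not hold it there, nor did *Cd3e* in the 234 bases searched, which were cut in the same way. The octamer ATGCAAAT, or its reverse complement ATTTGCAT, was in none of the 5 members and in 1.6% of all promoters. A match describes letters in a window and was not tested as a binding site.

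Reads counted on genes ranged from 4959783 to 28723319 per library with a median of 21694089, and a ribosomal RNA gene took 0.0127% to 75.4% of them. Levels are therefore given as CPM, counts per 1e6 counts of a library size normalised by the TMM method. The order of the members by level and the ratios between genes use CPM per kilobase of merged exons, unless stated otherwise. *Fam13a* itself was at 10.9 to 273.4 CPM in KO libraries and 12.0 to 730.7 CPM in WT libraries, counted over all its exons, of which 1 is deleted. KO libraries lay below WT libraries without overlap in 3 of 8 matched pairs of groups (male SAT on each diet and liver on HFD) and overlapped with them in the other 5. *Adipoq* and *Alb*, genes of adipocytes and hepatocytes, belong to marker lists whose summed levels separated fat from liver. The 8 adipocyte genes reached 5362 to 17456 CPM in fat and at most 116.6 CPM in liver, and the 6 hepatocyte genes 63468 to 115864 CPM in liver and at most 247.3 CPM in fat.

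The members were concentrated in 7 of the 23 SAT libraries, and these 7 were not spread evenly over the groups. They were the 4 WT libraries of males on chow, KO library 4 of males on chow, WT library 2 of males on HFD and KO library 2 of females on HFD. The same 7 libraries were the 7 highest of SAT for 7 of the 8 members. For *Cd3g* alone, WT library 4 of males on chow was outside the 7 highest and KO library 4 of females was among them.

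*Cd79a* was at 50.4, 56.1, 51.6 and 16.9 CPM in SAT of WT males on chow. In KO males on chow it was at 0.0999, 0.428, 1.65 and 34.0 CPM. In males on HFD it was at 0.337, 17.9, 0.486 and 0.293 CPM in WT and at 0.297, 0.424, 0.0553 and 0.273 CPM in KO. Thus 1 library in each of KO males on chow and WT males on HFD reached the level of the chow WT libraries, and no KO library of males on HFD did. In females on HFD, *Cd79a* was at 0.328, 0.0857 and 0.210 CPM in WT and at 0.141, 23.9, 0.578 and 0.492 CPM in KO, so that KO library 2 stood alone.

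*Cr2* showed the same libraries with a wider gap. It was at 117.1, 145.6, 104.1 and 36.0 CPM in SAT of WT males on chow and at 0.0999, 0.764, 4.23 and 72.0 CPM in KO. In WT males on HFD, library 2 had 59.3 CPM and the other 3 had 0.221 to 0.440 CPM. KO males on HFD had 0.243 to 0.555 CPM. KO library 2 of females had 72.6 CPM and the other 6 female libraries 0 to 0.924 CPM. In the female WT library with 0 counts of *Cr2*, that count allows up to 0.257 CPM (3 counts, for counting error only).

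The T cell genes were also high in these libraries. *Cd3e* was at 16.2, 7.36, 17.5 and 3.43 CPM in SAT of WT males on chow, and at 1.70, 0.183, 0.330 and 13.7 CPM in KO. *Cd8a* was at 38.2, 24.5, 35.9 and 6.86 CPM in WT and at 0.599, 0.336, 0.660 and 31.1 CPM in KO. For both genes, KO library 4 lay among the WT libraries and the other 3 KO libraries below all of them. WT library 2 of males on HFD had 5.32 CPM of *Cd3e* and 10.2 CPM of *Cd8a*, and KO library 2 of females 12.3 and 28.2 CPM. The remaining 3 members, *Cd79b*, *Ms4a1* and *Cd4*, ranged in SAT from 0.429 to 109.0, 0.171 to 141.4 and 0.429 to 37.1 CPM.

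**Figure D1:**
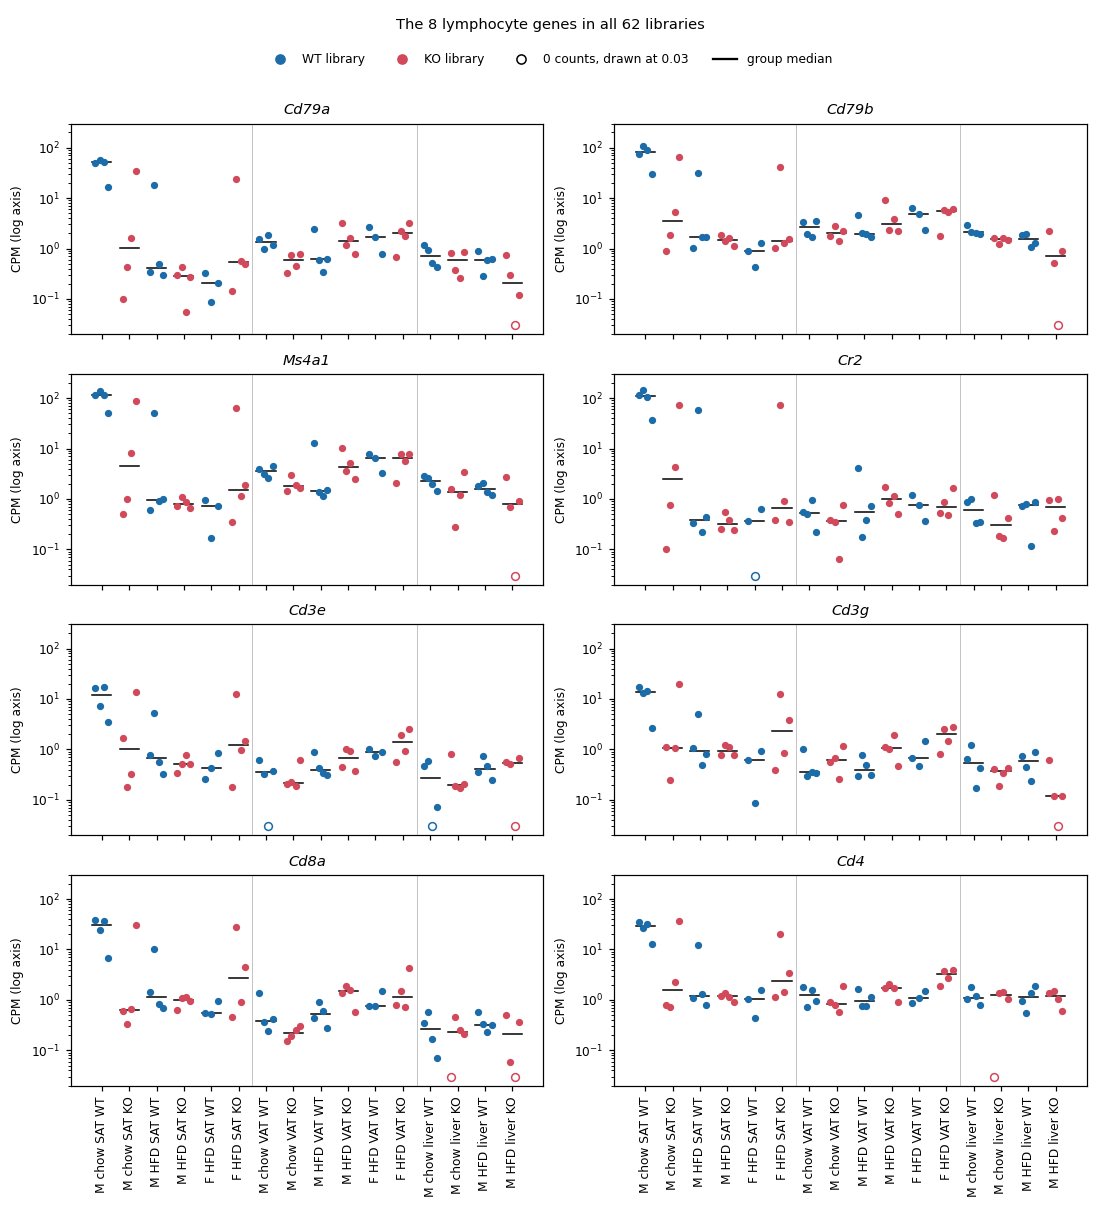
Level of each member in CPM (log axis) in the 62 libraries, 1 panel per gene, by group of sex, diet, tissue and genotype. Points are libraries (WT blue, KO red), black lines group medians and open points libraries with 0 counts, drawn at 0.03. For the B cell genes, all 4 WT SAT libraries of males on chow and single libraries of 3 other SAT groups stand far above the rest. For the T cell genes the gap is smaller, and WT library 4 of males on chow lies within the rest for *Cd3g* (2.61 CPM). No VAT library exceeds 12.8 CPM of any member.

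Per kilobase, the order of the members in SAT of WT males on chow was *Cd79b* (median 57.1 CPM per kb), *Cd79a* (35.0), *Ms4a1* (19.0), *Cr2* (13.6), *Cd8a* (8.30), *Cd4* (7.28), *Cd3g* (4.27) and *Cd3e* (2.89). The 4 B cell genes thus all lay above the 4 T cell genes there. Neighbours such as *Cd8a* and *Cd4* differed by less than the spread over the 4 libraries (CPM of 26.4 ± 14.3 and 26.8 ± 9.91, mean ± SD, n = 4, before division by length). In VAT the order again began with *Cd79b* (1.66 CPM per kb), *Cd79a* (0.799) and *Ms4a1* (0.526), but *Cr2* came last at 0.0679, below *Cd4* (0.370), *Cd3g* (0.211), *Cd8a* (0.197) and *Cd3e* (0.135).

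Transcripts of lymph node vessels followed the members in SAT. *Glycam1*, which high endothelial venules make and the mammary gland also secretes, was counted in 8 of 23 SAT libraries and listed at 0 in 15, where a count of 0 allows up to 0.0821 to 0.314 CPM depending on the library. It was at 19.5, 13.5, 14.9 and 2.37 CPM in WT males on chow. In KO males on chow it was at 0, 0, 0.297 and 23.2 CPM, in WT library 2 of males on HFD at 3.47 CPM, and in KO library 2 of females at 100.2 CPM. These are the 7 libraries named above and KO library 3 of males on chow, which had 9 counts. *Chst4*, a sulfotransferase of these venules, was counted in the same 7 SAT libraries (0.236 to 1.50 CPM) and in none of the other 16. Their counts of 0 allow up to 0.0821 to 0.314 CPM, a range that reaches the lowest level in the 7.

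Other stromal and vascular genes divided the libraries to differing degrees. *Tnfsf11*, the cytokine RANKL that lymph node stroma makes, was at 1.08 to 4.99 CPM in the 7 libraries and at 0 to 0.363 CPM in the other 16. *Madcam1*, an adhesion molecule of high endothelium, was at 0.327 to 1.82 CPM in the 7 and at 0 to 0.297 CPM in the other 16. It was listed at 0 in 4 of these, where a count of 0 allows up to 0.0911 to 0.314 CPM. *Cxcl13*, the chemokine of B cell follicles, was at 11.5 to 66.2 CPM in the 7, but KO library 3 of males on chow lay within that range and KO library 2 had 8.49 CPM. *Enpp2*, which high endothelium and adipocytes both express, was at 151.0 to 413.1 CPM in all 23 SAT libraries. With *Enpp2* included, the 10 listed genes of lymph node stroma and high endothelium summed to 296.6 to 374.0 CPM in SAT of WT males on chow. In SAT of KO males on HFD, with none of the 7 libraries, they summed to 293.7 to 416.5 CPM, so the sum did not follow the members. *Ccl21a*, the chemokine of the T cell zone, was listed at 0 in all 62 libraries. It has near-identical copies, and how reads shared between them were counted is not stated, so its 0 is uncertain. In females *Glycam1* could also come from mammary tissue. It was counted in 1 of the 7 female SAT libraries, KO library 2, and stood above *Cd79a* there, per kilobase. In male SAT it stood below *Cd79a* in each library with counts. The epithelial keratin *Krt18* was at 40.6 to 114.2 CPM in all 7 female SAT libraries. *Krt18* was chosen after its values were seen, and the source of *Glycam1* was not tested.

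The 8 recirculating lymphocyte genes summed to 195.1 to 530.1 CPM in SAT of WT males on chow. In single libraries of the other groups they reached 385.7 CPM (KO males on chow), 172.8 CPM (WT males on HFD) and 292.4 CPM (KO females), while KO males on HFD reached 126.4 CPM and VAT 174.0 CPM, so the sum set the libraries less far apart than *Ccr7* did. *Ccr7*, the receptor that guides lymphocytes into the T cell zone, was at 7.35 to 37.5 CPM in the 7 libraries and at 0.0999 to 2.13 CPM elsewhere in SAT. *Fcer2a* (CD23), a receptor of naive follicular B cells, was at 13.3 to 60.1 CPM against 0 to 1.65 CPM.

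**Figure D2:**
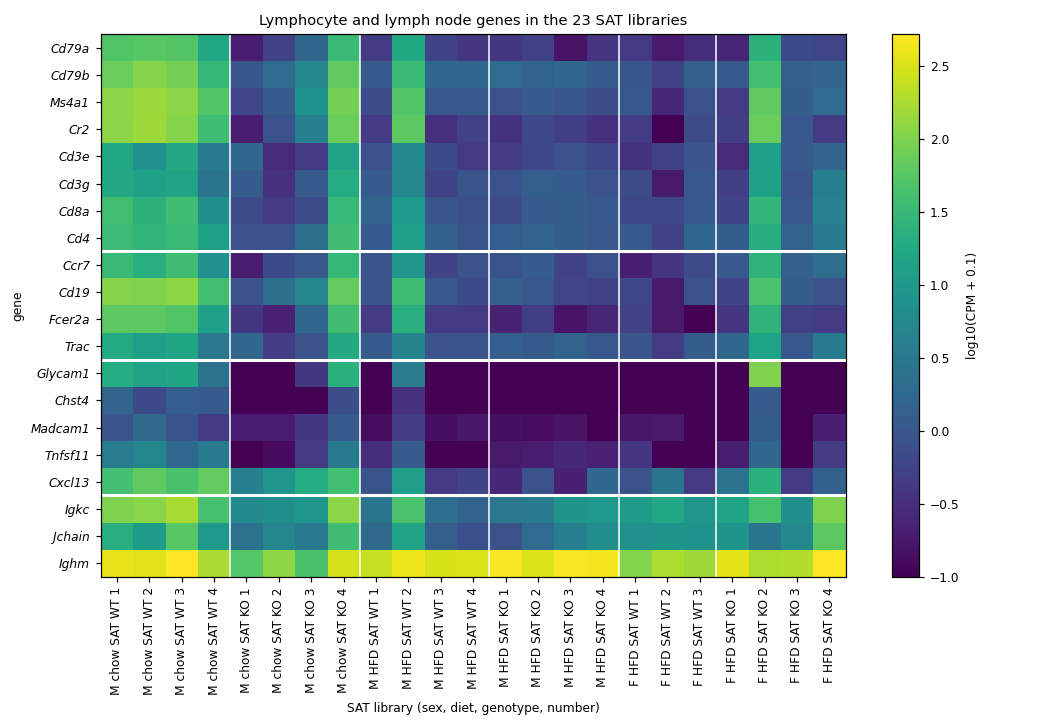
Colour gives log10(CPM + 0.1) of 20 genes (rows) in the 23 SAT libraries (columns, by sex, diet, genotype and number). Rows are divided into the 8 members, genes of naive B and T cells, genes of lymph node vessels and stroma, and immunoglobulin genes. The 7 libraries that are bright in the members are the 7 with *Chst4* counts, while *Ighm* is bright in every library.

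KO library 3 of males on chow lay between these libraries and the rest for the B cell genes. It had 1.65 CPM of *Cd79a*, 8.02 of *Ms4a1* and 4.23 of *Cr2*, with 0.297 CPM of *Glycam1*. Its T cell members did not move as 1 group. *Cd3e* was at 0.330, *Cd3g* at 1.06 and *Cd8a* at 0.660 CPM, within the range of the libraries outside the 7, while *Cd4* was at 2.28 CPM, second among those libraries to the 3.39 CPM of female KO library 4. KO library 4 of females had the opposite make-up. Its *Cd3g* (3.86 CPM) and *Cd8a* (4.40 CPM) were above every other SAT library outside the 7, its *Cd79a* was at 0.492 CPM, and *Glycam1* and *Chst4* were listed at 0.

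Ratios between genes within 1 library do not depend on its size. They were computed per kilobase where both sides had at least 10 counts, and on the TPM scale they take the same values. The ratio of B cell genes (*Cd79a*, *Cd79b* and *Ms4a1* summed) to T cell genes (*Cd3e* and *Cd3g*) was 11.5, 23.4, 13.2 and 24.7 in SAT of WT males on chow, 8.83 in KO library 4 on chow, 15.0 in WT library 2 on HFD and 7.93 in female KO library 2. In KO males on HFD it was 2.46 to 5.13 in SAT and 5.44 to 22.9 in VAT, without overlap, a pair of groups chosen after the values were seen. Over all 20 VAT libraries with enough counts it ranged from 4.06 to 22.9, so the B to T ratio alone does not set the 7 SAT libraries apart from VAT.

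The ratio of *Cr2* to *Cd79a* in these SAT libraries lay above that of VAT. The libraries were named for high values of the same members, so the ratio is no separate test of them. It was 0.363 to 0.596 in the 7 SAT libraries and 0.460 in KO library 3 of males on chow. In the 16 VAT libraries with enough counts it was 0.0484 to 0.296, with a median of 0.0945, and in 5 liver libraries 0.135 to 0.251. Thus VAT carried *Cd79a* with less *Cr2* than these SAT libraries. In the other 5 SAT libraries with enough counts, the ratio was 0.130 to 0.321 on 10 to 25 counts of *Cr2*. Ratios above the range of VAT were thus not confined to the 7 libraries.

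Ratios of immunoglobulin transcripts to *Cd79a* ran the other way. *Cd79a* is itself high in the 7 libraries, so these ratios do not say that immunoglobulin levels were lower there. *Igkc*, the kappa light chain that plasma cells make in large amounts, stood at 4.86 to 9.47 times *Cd79a* per kilobase in the 7 SAT libraries and at 18.9 to 304.8 times in the 20 VAT libraries with enough counts. *Jchain*, a protein of secreted IgM and IgA, was at 0.0624 to 0.634 times *Cd79a* in the 7 and at 2.01 to 30.6 times in VAT. Female KO library 4 of SAT had the highest ratios of all, 556.4 for *Igkc* and 69.2 for *Jchain*, on 18 counts of *Cd79a*. *Ighm*, the heavy chain of IgM, was at 43.9 to 517.2 CPM throughout SAT, including libraries with *Cd79a* near 0.

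**Figure D3:**
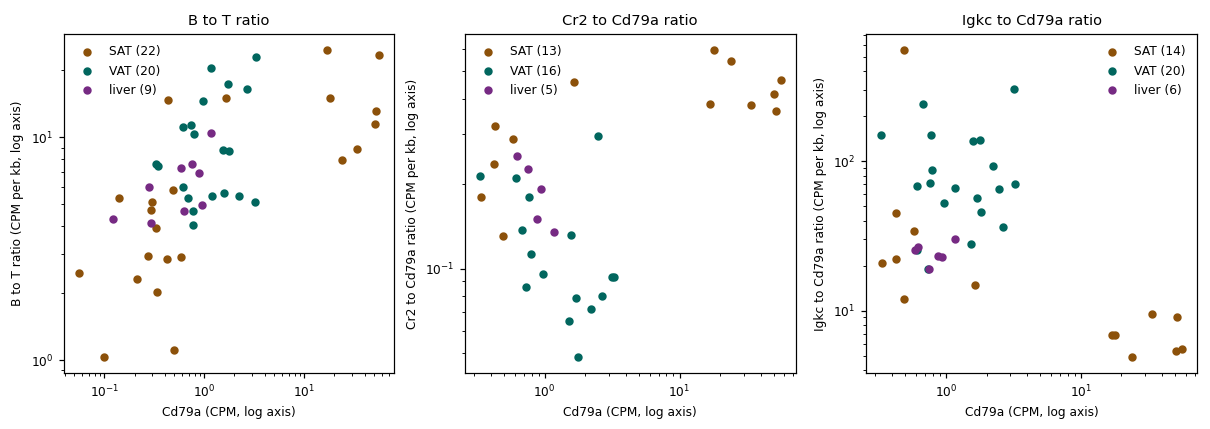
The plot shows 3 ratios within a library, on the CPM per kb scale (log axis), against its *Cd79a* level in CPM (log axis): B to T cell genes, *Cr2* to *Cd79a* and *Igkc* to *Cd79a*. Points are libraries with at least 10 counts on both sides, coloured by tissue, with their number in the key. The SAT libraries above 10 CPM of *Cd79a* have *Cr2* ratios above and *Igkc* ratios below every VAT library.

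Averaged over matched groups of sex, diet and genotype, the members were higher in SAT than in VAT. All 8 log2 differences were positive, and 7 of the 8 members passed the FDR of 10% in edgeR's quasi-likelihood test, where 18.5% of all 19873 genes tested were higher in SAT. *Cr2* differed most, 13.9-fold (log2 fold change 3.80 ± 0.94 SE, adjusted p = 0.00177). *Cd8a* was 5.79-fold higher (2.53 ± 0.64, adjusted p = 0.00238), *Cd3e* 3.77-fold (adjusted p = 0.00817) and *Cd79a* 3.67-fold (adjusted p = 0.0644). *Ms4a1* did not pass (2.94-fold, adjusted p = 0.13). The sizes leaned on the high SAT libraries. Without KO library 4 of males on chow, WT library 2 of males on HFD or female KO library 2, each left out alone, 5 members passed, the log2 fold change of *Cd79a* was 1.08, 1.15 and 1.15 (not called), and that of *Cr2* was 3.08, 2.95 and 2.78 (called). The median over the members was 1.84 on the log2 scale, against -0.02 over all genes tested.

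Lists of related genes were counted in the same comparison. Of 20 other T cell genes, 19 were higher in SAT and none lower, and of 20 other B cell genes, 11 were higher and none lower. Among 8 recirculating lymphocyte genes 4 were higher and none lower, as were 9 of 12 effector T and NK cell genes and 6 of 8 regulatory T cell genes. Of the 8 tested genes of lymph node stroma and high endothelium, 4 were higher and 1 lower. *Madcam1* was 9.30-fold higher in SAT (adjusted p = 2.0e-05) and *Chst4* 10.7-fold lower (adjusted p = 6.0e-05), and all 23 VAT libraries held *Chst4* counts. *Glycam1* was counted in 3 of 23 VAT libraries, on at most 2 counts. Of 8 plasma cell genes, 1 was higher and 2 lower in SAT, and of 8 macrophage genes 1 was higher and 6 lower (summed level 358.7 to 1221 CPM in SAT and 434.7 to 3544 CPM in VAT). The part of these other cells in the members' difference was not tested. On chow each depot ran on its own lane, so depot and lane cannot be told apart there.

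The depot difference was not the same in every group. In WT males on chow, all 8 members were higher in each SAT library than in each VAT library, where 15.5% of the genes tested were so divided. *Cr2*, for example, was at 36.0 CPM or more in SAT and at 0.971 CPM or less in VAT. In KO males on HFD, *Cd79a*, *Cd79b* and *Ms4a1* were instead lower in each SAT library than in each VAT library, and 12.9% of all genes were divided this way. *Ms4a1* was at 0.668 to 1.08 CPM in SAT and 2.44 to 10.4 CPM in VAT of these mice. WT females on HFD showed the same 3 genes below VAT without overlap (15.1% of all genes), with *Ms4a1* at 0.171 to 0.947 CPM in SAT and 3.25 to 7.80 CPM in VAT. For *Cr2* and the 4 T cell genes, the depots overlapped in both groups. None of the 7 libraries named above was in either group. These groups were chosen after the values were seen, and the difference between groups was not tested.

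Diet was compared between 8 SAT libraries of males on chow and 8 on HFD, with genotype as a covariate, in a fit in which the 7 female libraries shared the estimate of the spread. All 8 members were lower on HFD, and 29.4% of the 18366 genes tested were lower. *Cd79a* fell 11.8-fold (log2 fold change -3.56 ± 1.31 SE, edgeR adjusted p = 0.0301), *Cr2* 10.1-fold (-3.34 ± 1.53, adjusted p = 0.0746), *Cd8a* 8.02-fold (-3.00 ± 1.06, adjusted p = 0.025) and *Cd4* 7.36-fold (-2.88 ± 0.92, adjusted p = 0.0145). The median over the members was -3.09 on the log2 scale, against -0.03 over all genes. The ranges of the 2 diets overlapped for every member, because 3 KO libraries on chow were low and WT library 2 on HFD was high. Without KO library 4 on chow, 6 of the 8 members passed, and *Cr2* lost its call in 9 of the 23 fits that left out 1 library (this one, WT library 2 on chow, any KO library on HFD and WT libraries 1, 3 and 4 on HFD). Without WT library 2 on HFD, all 8 passed with larger differences, -6.30 for *Cd79a* and -7.43 for *Cr2* on the log2 scale.

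Genes of the same settings fell with them on HFD. Lower were 18 of 20 other B cell genes, 19 of 20 other T cell genes and 6 of 8 recirculating lymphocyte genes, with none of these 3 lists' genes higher. *Cxcl13* fell 17.9-fold (adjusted p = 0.00186) and *Madcam1* 7.61-fold (adjusted p = 0.0114), and 6 of the 8 tested genes of lymph node stroma and high endothelium were lower. The exception there was *Enpp2*, which was 1.32-fold higher. All 6 dendritic cell genes were lower, and *Ighm* did not pass (1.55-fold higher, adjusted p = 0.23). All 6 hepatocyte genes were higher on HFD (summed 6.76 to 29.8 CPM on chow and 13.1 to 204.5 CPM on HFD), as were 4 of 8 adipocyte genes with 1 lower (5413 to 16673 and 10159 to 17456 CPM), and their part in the members' change was not tested. Within each tissue, chow and HFD libraries ran on different lanes, so diet and lane cannot be told apart. Whether the diet groups also differed in age is not known, because the age of the sequenced mice on chow is not given.

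Within SAT of males on chow, KO was compared with WT on 1 lane. No member passed the test with edgeR or with DESeq2, none had an unadjusted p under 0.05, and 31.3% of all genes tested passed. The members' log2 differences were all negative, from -2.37 to -1.10, with *Cd79a* at -2.25 ± 1.44 SE (adjusted p = 0.25) and *Cd3g* at -1.10 ± 1.07 (adjusted p = 0.46). The outcome turned on KO library 4. This library held the highest KO value for all 8 members and was singled out after these values were seen. Leaving it out lowers the KO mean of each member, so the fit without it is no separate test. In that fit, all 8 members were lower in KO, and 51.6% of all genes passed in either direction. *Cd8a* was then 51.1-fold lower (adjusted p = 0.00264), *Cd4* 20.3-fold (adjusted p = 0.00372) and *Cr2* 52.8-fold (adjusted p = 0.0257).

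Other lists moved with this comparison, in which 3403 of all 18366 genes tested were higher in KO and 2338 lower. Adipocyte genes were higher in KO, 7 of 8 with none lower, and their summed level was 10069 to 16673 CPM in KO and 5413 to 11135 CPM in WT. *Plin1*, the coat protein of lipid droplets, was 2.34-fold higher (adjusted p = 0.00456). Of the other B cell genes, 4 of 20 were lower, *Ighm* among them (2.76-fold, adjusted p = 0.0385), and of the other T cell genes none was called. The ribosomal RNA gene took 0.0259% to 22.6% of counts in WT and 0.0211% to 18.2% in KO. The part of adipocyte content and RNA quality in the members' values was not tested.

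**Figure D4:**
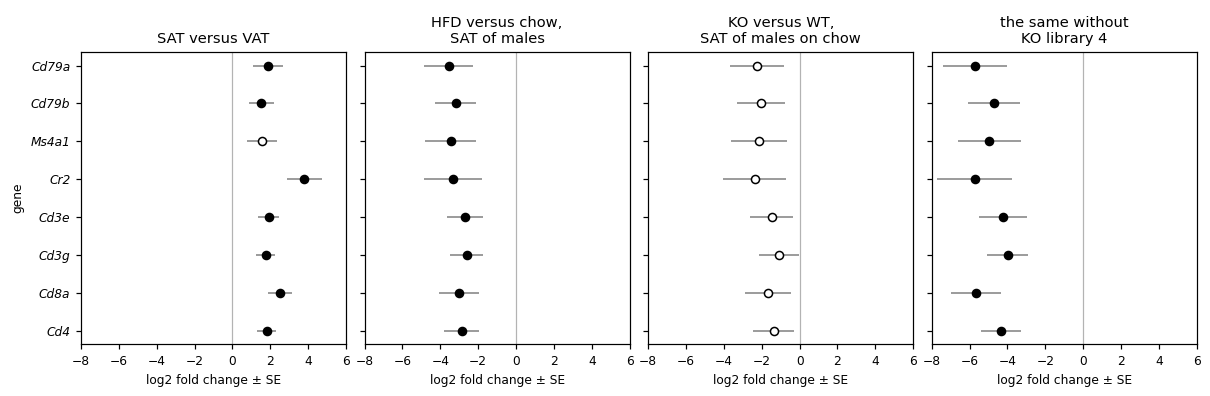
Log2 fold change ± SE of the 8 members in 3 comparisons, with the genotype comparison of SAT from males on chow shown again without KO library 4. Filled points passed the FDR of 10% in edgeR, open points did not. Leaving out this 1 library, singled out after its high member values were seen, moves all 8 members from open to filled.

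Genotype gave no call among the members anywhere else. Across the 23 SAT libraries, with sex and diet accounted for, 0 of 8 members passed with either tool and 0 had an unadjusted p under 0.05, where 4.33% of all genes passed. Without female KO library 2, 2 members passed there, and the share of all genes called in that fit is not given here. In VAT the count was 0 of 8, with 1 at an unadjusted p under 0.05 and 0.00527% of all genes called. In SAT and VAT of males together it was 0 of 8, with 0 at an unadjusted p under 0.05 and 3.97% of all genes called. In SAT of males on HFD alone, 0 of 8 passed, 3 had an unadjusted p under 0.05 and 0% of all genes passed. In SAT of females on HFD, 0 of 8 passed, 6 had an unadjusted p under 0.05 and 0.0109% of all genes passed. The sign was opposite in these last comparisons. All 8 members were negative in the males, where WT library 2 was high, and all 8 positive in the females, where KO library 2 was high. The difference of the KO effect between chow and HFD in SAT of males was called for 0 of 8 members (0 at an unadjusted p under 0.05, 1.77% of all genes). DESeq2 called no member in any of these tests.

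VAT held the members at low and more even levels. *Ms4a1* was at 3.96, 3.15, 2.55 and 4.43 CPM in WT and 1.42, 2.98, 1.86 and 1.68 CPM in KO males on chow, and at 12.8, 1.38, 1.14 and 1.49 CPM in WT and 10.4, 3.55, 5.18 and 2.44 CPM in KO males on HFD. In females it was at 7.80, 6.44 and 3.25 CPM in WT and at 2.04, 7.97, 5.54 and 7.70 CPM in KO. The groups overlapped between diets. WT library 1 of males on HFD was the highest of all VAT libraries for *Ms4a1* and for *Cr2* (4.09 CPM), and held the most *Cxcl13* (50.9 CPM), with 0 counts of *Glycam1*. It is 1 of the 2 libraries of the series on another flow cell, and the ribosomal RNA gene took 40.1% of its counts.

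On HFD, 1 of the 8 members was higher in VAT of males, where 21.8% of all 18975 genes tested were higher. This was *Cr2*, at 0.551, 0.514, 0.971 and 0.225 CPM in WT and 0.391, 0.349, 0.0641 and 0.763 CPM in KO on chow. On HFD it was at 4.09, 0.173, 0.380 and 0.713 CPM in WT and 1.69, 0.846, 1.15 and 0.499 CPM in KO. The diets overlapped, and the fitted difference was 2.42-fold (log2 fold change 1.28 ± 0.56 SE, edgeR adjusted p = 0.0729). Once the library sequenced on another flow cell was dropped, the log2 fold change was 0.62 and no member passed. The call was lost in 6 of 23 fits without 1 library (KO libraries 1, 2 and 3 and WT library 4 on chow, and KO library 1 and WT library 1 on HFD). Among the other B cell genes, 7 of 19 tested were higher and none lower, including *Cd22* (3.85-fold, adjusted p = 7.6e-06) and *Ighm* (3.21-fold, adjusted p = 3.3e-05). Macrophage genes, for comparison, were higher for 7 of 8, with a summed level of 434.7 to 1304 CPM on chow and 1508 to 3544 CPM on HFD. Adipocyte genes were lower for 7 of 8 and higher for 1 (6074 to 16562 and 5362 to 11154 CPM), and hepatocyte genes higher for 5 of 6 (2.20 to 123.2 and 9.09 to 247.3 CPM). The part of these cells in the lymphocyte values was not tested.

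Between the sexes on HFD, 1 of 8 members was higher in female VAT, where 16.6% of all genes were higher. It was *Cd3e*, at 1.02, 0.747 and 0.904 CPM in WT and 0.551, 1.94, 0.923 and 2.53 CPM in KO females. In males on HFD it was at 0.876, 0.432, 0.342 and 0.305 CPM in WT and 0.455, 1.02, 0.928 and 0.382 CPM in KO. The sexes overlapped, and the fitted difference was 2.08-fold (1.06 ± 0.44 SE on the log2 scale, edgeR adjusted p = 0.0813). The call was lost in 10 of 23 fits that left out 1 library, among them each of the 3 WT libraries of females. Of the other T cell genes, 6 of 20 were higher in females, with *Lck*, the kinase of the T cell receptor, at 2.03-fold (adjusted p = 0.0297). Of the other B cell genes, 4 of 19 were lower, where 3401 of all 18975 genes tested were lower, a similar share. Macrophage genes were lower in females for 7 of 8 (summed 621.1 to 938.0 CPM, against 1508 to 3544 CPM in males on HFD) and adipocyte genes higher for 7 of 8 (11603 to 16343 against 5362 to 11154 CPM), and their part in these values was not tested. Fat of females and of males on HFD ran on different lanes within each depot, so sex and lane cannot be told apart. In SAT no member passed between the sexes with edgeR or DESeq2 (0 at an unadjusted p under 0.05, 18.3% of all genes called), and all 8 log2 differences were positive. Without WT library 2 of males on HFD, 3 members passed, and the share of all genes called in that fit is not given here.

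Liver carried few reads of these genes. Member counts summed to 2 to 186 per library, and *Cd3e*, *Cd3g* and *Cd8a* did not pass the filter on low counts there. The highest level of any member, before division by length, was 3.38 CPM (*Ms4a1* in KO library 4 of males on chow). Of the venule genes, *Glycam1* and *Madcam1* were listed at 0 in all 16 liver libraries and *Chst4* was counted in 12 of them. The 10 genes of lymph node stroma and high endothelium summed to 65.5 to 190.0 CPM in liver. Of the 5 members tested, 0 passed for KO against WT (0% of 14476 genes) and 0 for HFD against chow (40.8%) with edgeR or DESeq2, and 0 had an unadjusted p under 0.05 in either. For diet, 1 member passed without KO library 2 on chow or without KO library 1 on HFD. The share of all genes called in those fits is not given here. KO library 3 on HFD had 2 member counts, and 75.4% of its reads fell on the ribosomal RNA gene. A count of 0 there allows up to 3.05 CPM, so the members were not measurable in that library.

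The genes whose pattern over libraries was most like the mean of the members were ranked in each tissue, and *Ikzf3* and *Tbc1d10c* were among the 10 highest in both depots. Over the 23 SAT libraries and 14402 genes with a mean of at least 1 CPM, the highest Spearman rho was that of *Ms4a4b* (0.974), a membrane protein of T cells. *Lef1* (0.970), a transcription factor of naive T cells, *Skap1* (0.944), *Ubash3a* (0.941), *Ikzf3* (0.940), *Pglyrp2* (0.938), *Itgal* (0.937), *Tbc1d10c* (0.936), *Gpr174* (0.928) and *A130071D04Rik* (0.927) followed. Over the 23 VAT libraries and 15092 genes they were *Sept1* (0.916), *Iglc1* (0.911), *Ikzf3* (0.897), *Tbc1d10c* (0.890), *Rasgrp1* (0.888), *Pou2af1* (0.882), *Ltb* (0.877), *Zfp831* (0.876), *Il2rb* (0.866) and *Igkc* (0.860). The VAT genes thus included the immunoglobulin light chains *Iglc1* and *Igkc*, which were not among the 10 of SAT. In liver (16 libraries) *Pax5*, the B cell transcription factor, came first with 0.815, followed by *Sh2b2*, *Tgtp2*, *H2-Q6*, *Nfkbie*, *Spn*, *Cbx7*, *Sh3tc1*, *9930111J21Rik1* and *Cnot6l* at 0.774 to 0.812. The values describe libraries that share depth and groups, and no test was made. The lists also changed with the kind of correlation, so unlike lists do not by themselves show a difference between depots.

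Lists of other lymphoid settings were counted too. Thymocyte genes (*Rag1*, *Rag2*, *Dntt* and *Ptcra*) summed to at most 2.71 CPM in SAT, the highest being KO library 4 of males on chow with 2.51 CPM of *Dntt*. Regulatory T cell genes summed to 20.1 to 69.7 CPM and effector T and NK cell genes to 3.43 to 47.5 CPM in SAT. Of the tested genes of these lists, 5 of 8 and 8 of 11 were lower on HFD in SAT of males, with none higher. In that comparison the 1 thymocyte gene tested was lower, as were 3 of 5 germinal centre genes and 4 of 8 plasma cell genes, each of these last lists with 1 gene higher, while 4 of 8 macrophage genes were higher and 1 lower.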

How the data were processed

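RNA-seq of 62 libraries (RNeasy Lipid extraction, TruSeq Stranded kit) was analysed from the gene counts that the authors deposited: raw whole-number counts of 48795 genes from STAR (version 2.5.3a in the submitters' processing notes) on GRCm38 with Gencode annotation. Which strand column was kept is not given in the sources used here. All columns were matched to samples by name. Symbols came from GENCODE M21 (99.3% of genes).

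Counts were normalised by TMM and tested with edgeR 4.0.16 in R 4.3.3 (filterByExpr on groups, quasi-likelihood, Benjamini-Hochberg over all genes tested, FDR 10%), per tissue, for KO against WT, HFD against chow and female against male, and for SAT against VAT with group of sex, diet and genotype as covariate. The SE is the log2 fold change divided by the square root of F. CPM for levels used TMM sizes over all 62 libraries. Per-length levels are CPM per kilobase in place of TPM, because the ribosomal RNA share differed between libraries. Log2 CPM for Spearman's rho used a prior count of 2. The 8 members and the gene lists were chosen with earlier results of these data known. Named genes are the members, list genes that passed or describe a list, and in each tissue the 10 genes most like the members. No 2 libraries held identical values. Precision is limited by counts: 3 counts correspond to 0.0821 to 3.05 CPM. Alternatives were DESeq2 1.42.0, its size factors in edgeR, no filter, an FDR of 5%, no ribosomal RNA gene, no libraries of the other flow cell, 1 mean per group, and leaving out each library. Some single genes of the lists are not reported here.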

Additional observations from a re-analysis of the deposited data

Results flagged for a closer look

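In groups of 4 libraries, the highest or lowest value of a member was compared with the rest by Dixon's criterion, which marks about 1 in 20 groups by chance. It marked 33 of the 112 combinations of member and group, and the members are not independent of each other.

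KO library 4 of SAT from males on chow was far above its group for all 8 members: *Cd79a* 34.0, *Cd79b* 64.9, *Ms4a1* 87.2, *Cr2* 72.0, *Cd3e* 13.7, *Cd3g* 19.6, *Cd8a* 31.1 and *Cd4* 37.1 CPM. WT library 2 of SAT from males on HFD was likewise high for all 8, with *Cd79a* at 17.9, *Cd79b* at 31.9, *Ms4a1* at 50.0, *Cr2* at 59.3, *Cd3e* at 5.32, *Cd3g* at 5.05, *Cd8a* at 10.2 and *Cd4* at 12.3 CPM. KO library 2 of SAT from females on HFD was high for 7 members, with *Cd79a* at 23.9, *Cd79b* at 40.6, *Ms4a1* at 63.3, *Cr2* at 72.6, *Cd3e* at 12.3, *Cd8a* at 28.2 and *Cd4* at 20.2 CPM. WT library 4 of SAT from males on chow was low in its group for *Cd79a* (16.9 CPM). *Glycam1* was counted in all 4 of these libraries.

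In VAT, WT library 1 of males on HFD was high for *Cd79a* (2.48 CPM), *Cd79b* (4.52), *Ms4a1* (12.8) and *Cr2* (4.09), with 0 counts of *Glycam1*. WT library 1 of males on chow was high for *Cd3g* (0.999 CPM) and *Cd8a* (1.38 CPM), KO library 4 of males on chow for *Cd3e* (0.611 CPM), and KO library 1 of females was low for *Cd79b* (1.78 CPM). In liver, KO library 1 of males on chow was high for *Cd3e* (0.805 CPM), on few counts.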

How the results depend on the processing

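No called member changed its sign under the alternatives run. Members that were not called did. Over the fits that left out 1 library, KO against WT in SAT ranged from -0.81 to 0.38 for *Cd3g* on the log2 scale. It ranged from -1.59 to 0.11 for *Cd8a*, and from -3.79 to 0.00 for *Cr2*. The number of members called changed by over 1.5 times as follows. For HFD against chow in VAT (1 called), it was 0 at an FDR of 5%, without the filter or without the other flow cell, and 2 with DESeq2. For female against male VAT (1 called), it was 0 at an FDR of 5% or without the filter. Leaving out 1 library gave 0 to 3 members for HFD against chow in VAT and 0 to 1 in liver. It gave 0 to 2 for female against male VAT and 0 to 3 for female against male SAT (3 without WT library 2 of males). For KO against WT it gave 0 to 2 in SAT and 0 to 8 in SAT of males on chow. The remaining counts stayed within 1.5 times, among them HFD against chow in SAT (6 to 8) and SAT against VAT (5 to 8) with 1 library left out. Of the 10 genes most like the members, 3 (SAT), 6 (VAT) and 3 (liver) were shared with Pearson's r. Without division by length, the median ratio of *Cr2* to *Cd79a* was 2.12 in SAT and 0.526 in VAT. For fits that left out 1 library, the share of all genes called is given only for KO against WT in SAT of males on chow. Counts of members in the other such fits stand without it. Where calls changed, the cause was not tested. No paired analysis was possible because the labels carry no replicate numbers that groups share and tie no tissues to 1 mouse.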
